A study of Phalaenopsis aphrodite with 54 samples.

Results

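The 200 contigs described here had a lower signal in *Phalaenopsis* flowers on each sampled day after pollination than in the unpollinated flower and in the large bud. They were picked from 43618 contigs of a custom orchid array. For each contig the brightest probe over the amplified arrays was taken, and the highest mean among flowers 1, 3, 8 and 15 days after pollination (DAP) was subtracted from the lower of the means of the open flower and the large bud. The 200 largest values of this difference, taken on the log2 scale of the deposited table, made the set, and 44 contigs that the study names were left out. A contig (PATC number) is a transcript assembled from sequencing reads. The files pair these numbers with no gene name, so members are named by number and described by where they were measured.

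The organ samples (sepal, petal, lip, column, pedicel and pollinia), small buds (under 1 cm), large buds (over 1 cm), open flowers and flowers at 1, 3, 8 and 15 DAP came from Sogo Yukidian 'V3', a tetraploid commercial hybrid called V3 here. Leaves, roots, stalks, buds, open flowers, inflorescences and young inflorescences were labelled as the diploid species *P. aphrodite*. All of these samples were labelled after amplification, on 41 arrays covering 20 conditions, with 2 arrays per condition and 3 for leaves. Flowers, leaves and roots of both V3 and *P. aphrodite* were also labelled without amplification, on 13 arrays. Neither the part of the pollinated flowers that was taken nor the state of their pollinia is given in the sources used here.

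In orchids the pollen is packed into pollinia, and stamen and pistil tissues are fused into the column, which faces the lip, a petal of special form. The pedicel here includes the ovary. In *Phalaenopsis*, ovules are not mature when the flower opens. Pollination sets off wilting of the showy perianth (sepals, petals and lip) together with growth of the ovary and development of its ovules, so a whole flower sampled over these days changes in its proportions of organs as well as in its transcripts. In bulk samples of this kind, fewer cells of a type and less RNA per cell cannot be told apart.

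Levels below are log2 intensities after quantile normalization, which was run once for the amplified and once for the unamplified arrays. Intensities under 20 were set to 20, so that 4.32 is the lowest level possible. A probe was taken as detected on an array where at least 0.5 of its spots were well above background by the scanner software. Where no array of a condition detected a probe, a fold change was taken against a stand-in level. This was the lowest detected level of the same arrays, or the probe's own level where higher. The lowest detected level lay at or near 4.32, and some undetected probes read above it. Such fold changes, given below as at least or as a bound, are therefore not strict lower limits. Fitted differences use the values of undetected probes as they stand, or 4.32 where lower, so their size is not exact where such probes enter. Replicate arrays of a condition were often as close to each other as the 2 spots of a probe on a single array, and such arrays were averaged and counted once. This left 26 replicates on the amplified and 8 on the unamplified arrays, and where a condition kept only 1, its spread was taken from the conditions that kept 2. Nothing in the sources says which arrays of a condition came from separate plants, so p-values measure the spread between these arrays, which may be technical. A contig was called at an adjusted p under 0.05 in limma, with Benjamini-Hochberg adjustment over all contigs tested, and a difference over 4-fold.

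Over the 41 amplified arrays, between 71.2% and 80.7% of spots were well above background, and between 73.7% and 82.7% over the 13 unamplified arrays. The arrays labelled as inflorescence and young inflorescence of *P. aphrodite* went against their genotype label. On the unamplified arrays, 26 contigs were detected on every V3 array and on none of *P. aphrodite*, and 19 the other way round. The 13 amplified V3 conditions detected 15 to 20 of the former and 5 to 13 of the latter, and the other 5 *P. aphrodite* conditions detected 9 to 15 and 16 to 19. The 2 inflorescence conditions detected 15 to 19 and 7 to 9, as V3 did, and their levels were not compared in any test here. Both conditions kept 2 replicates, so their arrays do enter the spread behind the p-values of the amplified arrays. The open V3 flowers, the V3 buds and the flowers at 1 DAP were each scanned in a batch without any other V3 condition of the time course, except that both bud sizes shared a batch. A difference of flower or bud from a day after pollination can therefore not be told apart from a difference between scan batches.

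The values that chose the members ran from 4.69 (25.7-fold) at PATC154404 through a median of 1.40 to 0.97 (1.96-fold) at the last member. At the lower end of the set, PATC135454, PATC138783 and PATC127292 had 0.974, 0.973 and 0.967, while PATC057434, PATC040142 and PATC130968, just outside, had 0.966, 0.965 and 0.962. The edge of the set thus cuts through contigs of like values. Over 4-fold were 48 members, and the value was above 0 for 3954 of the ranked contigs (9.07%), with a median of -0.60 over all of them. Of the 131 members with a probe besides the brightest, this other probe also gave a value above 0 for 125 and a value at or above that of the last member for 95. The set holds 200 contigs but fewer independent measurements. With pairs linked at a correlation over 0.995 across the 41 arrays, 56 members fell into 18 groups of near-identical profile, the largest with 8, which left 162 distinct profiles. The files do not settle whether near-identical contigs come from 1 gene, and their values may share signal.

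The data did not bear out the word "lost" for most of the set. On the 8 arrays of pollinated flowers, 10 members were detected on none, 42 on some and 148 on each. The median level of the members was 11.49 in the open flower and 11.20 in the large bud. It was 8.25, 7.59, 7.73 and 7.89 at 1, 3, 8 and 15 DAP, beside medians over all contigs of 8.74, 8.77, 8.80 and 8.80. The members thus went from well above the typical contig to somewhat below it, and this drop is what the selection asked for. The median difference of the flower from the pollinated flowers was 2.91 at 1 DAP, 3.21 at 3 DAP, 3.01 at 8 DAP and 3.04 at 15 DAP, against 0 over all contigs. With quantile normalized values in place of the deposited ones, the difference that defined the set was still above 0 for each of the 200, with a median of 1.44.

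**Figure D1:**
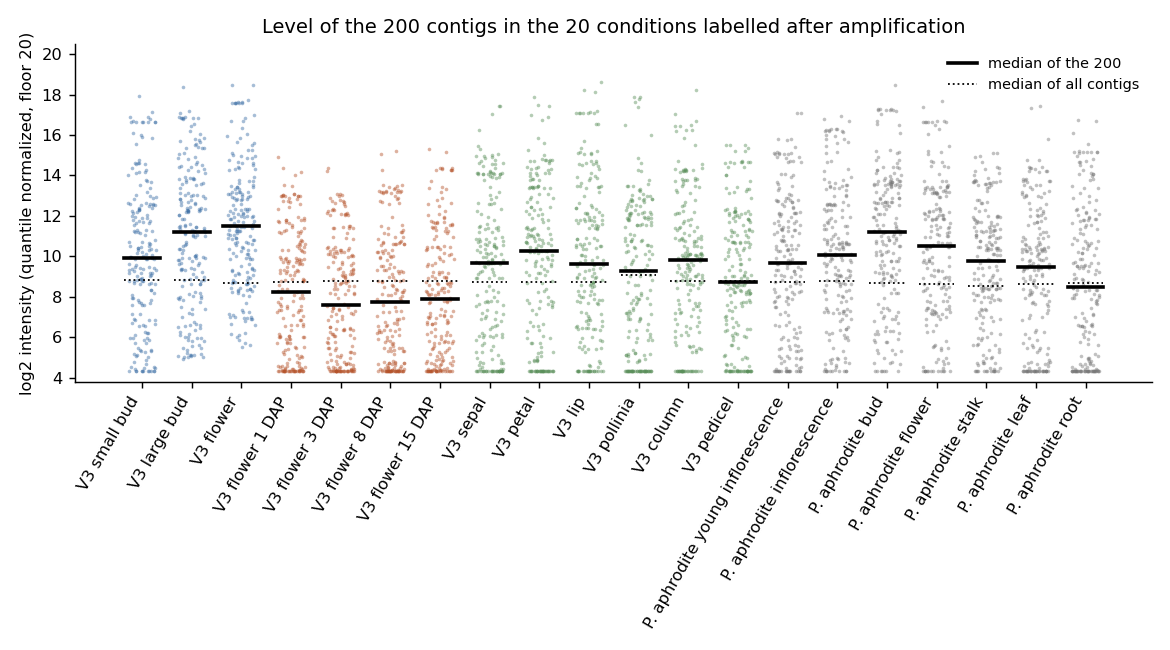
Log2 intensity of the 200 contigs in each of the 20 amplified conditions, with the median of the 200 as a solid line and the median of all contigs as a dotted line. The median of the 200 is 11.49 in the V3 flower and 11.20 in the large bud, and between 7.59 and 8.25 on the 4 days after pollination, where it lies below the median of all contigs.

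The selection fixed only that a contig was low on every day, not the order of the days. The highest of the 4 days was 1 DAP for 83 members and 15 DAP for 80, and it was 8 DAP for 22 and 3 DAP for 15. The lowest was 1 DAP for 63, 3 DAP for 54, 8 DAP for 46 and 15 DAP for 37. Days tied at the floor of 4.32 were counted under the earliest of them, so both counts for 1 DAP include ties. PATC154404 read 4.32 at 1, 8 and 15 DAP, and PATC010376 read 4.32 on all 4 days. Among the members were contigs already at the floor at 1 DAP, such as PATC154404, and contigs lowest at 15 DAP, such as PATC034731. The range over the 4 days was under 2-fold for 97 members and over 4-fold for 57, with a median of 1.06 on the log2 scale. Between 1 and 15 DAP, 24 members were over 4-fold lower on the later day and 6 over 4-fold higher. These orders were not tested, and 1 DAP lay alone on its slide and in its scan batch.

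The top member, PATC154404, was bright in open flowers and near the floor of the scale soon after pollination. In V3 it read 17.00 and 16.96 on the open flower arrays, 9.08 and 9.15 in large buds and 4.32 on both small bud arrays. After pollination 7 of the 8 arrays read 4.32 and did not detect it, while 1 of the 2 arrays at 3 DAP read 5.24. The open flower thus stood at least 6449-fold above the flower at 1, 8 and 15 DAP and 232-fold above the large bud. Among the organs it was highest in petals (12.62 and 12.78) and sepals (12.56 and 12.59), lower in lips (9.81 and 9.79) and columns (9.50 and 9.49), and not detected in pedicels or pollinia. The open flower arrays were thus above the arrays of every organ, by 4.28 over petals. In *P. aphrodite* the contig read 17.36 and 17.37 in open flowers, 15.25 and 15.15 in buds, and was detected on 1 of the 3 leaf arrays (5.36) and on no root array.

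PATC034731, together with its near-identical partner PATC068557, was lower on each later sampled day. It read 16.87 and 16.82 in open V3 flowers and 15.64 and 15.65 in large buds. It then read 11.17 and 11.19 at 1 DAP, 9.27 and 9.17 at 3 DAP, 7.37 and 7.24 at 8 DAP and 6.13 and 6.17 at 15 DAP. No array of a later day overlapped one of an earlier day, and the flower was 50.7-fold above 1 DAP and 1658-fold above 15 DAP. In organs PATC034731 was a transcript of the perianth and column, with 17.55 and 17.36 in sepals, 17.50 and 17.48 in petals, 16.54 and 16.55 in lips and 16.51 and 16.49 in columns. It stood at 12.06 on both pedicel arrays and was not detected in pollinia.

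PATC149493, from the group of 8 near-identical contigs, was lowest at 3 DAP and came part of the way back. It read 17.55 and 17.61 in open flowers and 16.85 and 16.86 in large buds. The values were 12.98 and 12.995 at 1 DAP, 12.14 and 12.07 at 3 DAP, 13.24 and 13.14 at 8 DAP and 14.32 and 14.25 at 15 DAP. The arrays at 15 DAP lay above those of the 3 other days and below every unpollinated V3 bud and flower array. PATC149452, highest in the pedicel, had a like course, with 12.96 and 12.95 in flowers, 8.51 and 8.55 at 3 DAP and 11.71 and 11.74 at 15 DAP.

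**Figure D2:**
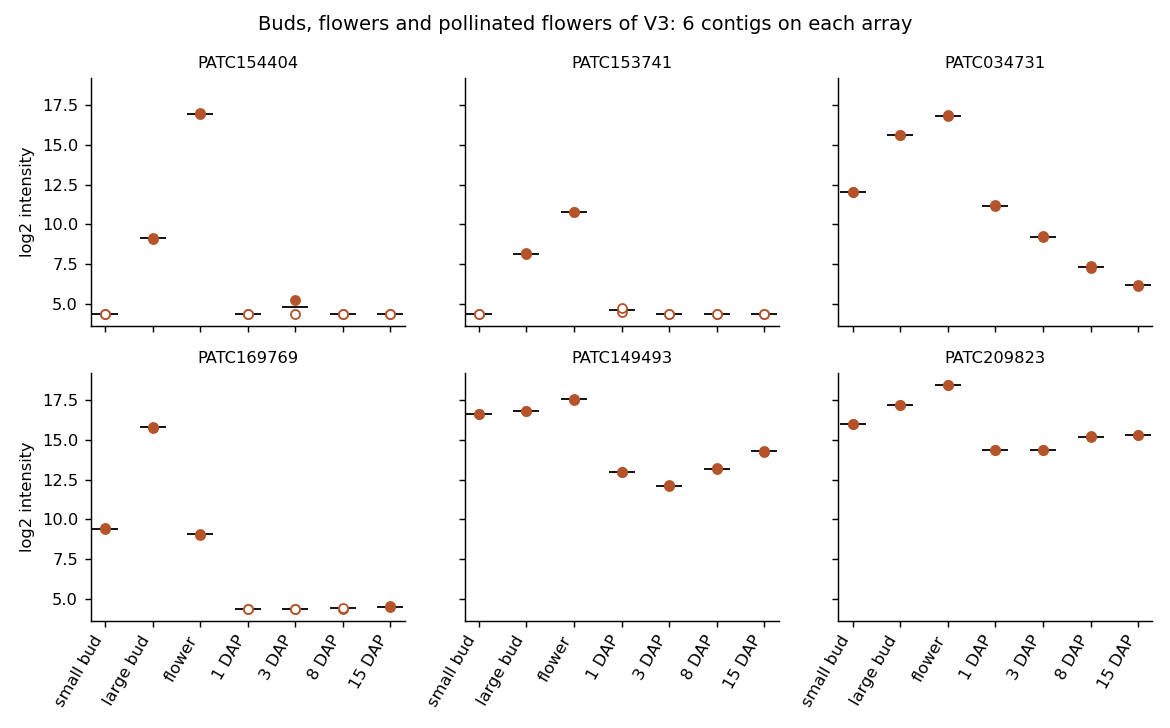
Log2 intensity of PATC154404, PATC153741, PATC034731, PATC169769, PATC149493 and PATC209823 on each array of V3 small buds, large buds, open flowers and flowers 1, 3, 8 and 15 days after pollination. PATC034731 drops from 16.87 in the flower to 6.13 at 15 DAP step by step, while PATC149493 has its lowest values (12.07 and 12.14) at 3 DAP.

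B-class MADS box factors specify petal and stamen identity in flowering plants. Genes for 2 of them would have been in the set but for the exclusion of contigs the study names. PaAP3-4 (PATC154853) had a value of 1.59 and PaPI-1 (PATC152852) of 1.48. PaAP3-4 read 14.22 and 14.25 in open flowers, 12.58 and 12.59 at 1 DAP and 9.82 and 9.81 at 15 DAP. PaPI-1 read 16.12 on both flower arrays, 13.92 and 13.93 at 3 DAP and 14.44 and 14.37 at 15 DAP. Neither overlapped between the flower and any day after pollination. PaAP3-2 (PATC133864), also of the B class, went the other way, with a value of -2.69. Its mean was 11.52 in the open flower and 12.81, 14.15, 13.38 and 12.31 at 1, 3, 8 and 15 DAP.

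Transcription factor lists that the study chose on these samples give the organ composition of the pollinated flowers only indirectly. The summed level of 6 factors of pollinia was 12.10 to 12.11 in the open flower, 12.83 at 1 DAP and 15.20 to 15.21 at 15 DAP, with 18.93 to 18.94 in pollinia. All 6 were detected on every one of these arrays. In the organs other than pollinia the same sum lay between 11.73 (column) and 12.42 (pedicel), so the open flower was within their range. In each of these organs 2 of the 6 were detected on no array. In large buds the sum was 15.35 to 15.36. The 6 factors did not move alike. PATC138798 went from 5.63 in the open flower to 8.08 at 1 DAP and 14.41 at 15 DAP, while PATC140443 went from 10.22 to 11.10 and 10.58. The lip factor AGL6-1 (PATC154379) read 15.13 on both open flower arrays, 13.48 and 13.51 at 1 DAP and 10.88 and 10.82 at 15 DAP. It was not confined to the lip on these arrays. Its mean was 16.12 in lips, 12.27 in pedicels, 12.21 in sepals, 11.25 in columns, 10.79 in pollinia and 4.32 in petals. The 6 AG-like factors of column and pedicel summed to 15.85 to 15.88 in the open flower, 14.36 to 14.37 at 1 DAP and 16.36 to 16.38 at 15 DAP, again with none undetected. The 5 factors of organs other than pollinia summed to 17.04 in the open flower, 17.66 to 17.68 at 3 DAP and 15.89 to 15.91 at 15 DAP, each contig detected on every array. The sum hides contigs that moved apart. From the open flower to 3 and 15 DAP, PATC150065 went from 16.64 to 11.99 and 12.50, and PATC133172 from 14.54 to 14.04 and 10.78. In the same order PATC138298 went from 10.51 to 16.77 and 14.91, PATC136849 from 12.06 to 16.17 and 14.27, and PATC135043 from 11.67 to 10.92 and 11.60. Ubiquitin and actin together lay at 16.67 to 16.68 in the open flower and between 15.96 and 16.16 after pollination. Only ubiquitin was lower, with a mean of 16.58 in the open flower and between 15.82 and 15.98 after pollination. The mean of actin was 12.78 in the open flower and between 12.78 and 13.05 after pollination. The lip factor thus was lower after pollination and the summed column and pedicel factors were higher at 15 DAP than in the open flower, although PATC138585 among them went from 14.04 to 12.97. Their part in the drop of the members was not tested.

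Of the V3 buds, the small bud entered no step of the selection. Its median over the members was 9.90, between the 11.20 of the large bud and the pollinated flowers, and in 169 members it was above the highest day after pollination, beside 30.3% of the contigs detected on every array of V3 flower, large bud or an organ, called detected contigs below. The members were chosen for a low highest day, so this count is a description. Large and small buds lay within 2-fold of each other for 112 members, beside 87.3% of detected contigs. In 39 the large bud was over 4-fold higher and in 7 over 4-fold lower. Open flower and large bud, which both chose the members, lay within 2-fold for 111, beside 62.1% of detected contigs, with the flower over 4-fold higher in 38 and over 4-fold lower in 16.

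PATC169769 was a transcript of the large bud. With its 3 near-identical partners PATC177173, PATC167760 and PATC170569 it ranked among the top 9 members. It read 15.78 and 15.82 in large buds, 9.43 and 9.38 in small buds and 9.09 and 9.03 in open flowers. No array of a pollinated flower was above 4.52, and only 2 of the 8 detected it. The large bud was thus at least 2850-fold above the flower at 1 DAP. Among organs PATC169769 was detected only in pollinia (11.79 and 11.78), at least 176-fold above any other organ. Buds of *P. aphrodite* read 10.73 and 10.63, and its open flowers did not detect the contig.

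The arrays of the 6 V3 organs were not part of the selection, but V3 flowers, which consist of these organs, were. A wide span over organs may thus lie partly in the choice. In a comparison of all 6, 172 of the 197 members tested (197 of the 200 passed the filter) were called as different across organs, beside 54.0% of all contigs tested. The median span between the highest and lowest organ was 4.10 on the log2 scale for the members and 2.21 for all contigs. By the organ of highest level, 70 members were highest in pollinia, 37 in petals, 30 in columns, 28 in lips, 19 in sepals and 16 in pedicels. The 19 include PATC136002 and PATC010376, which no organ detected and which were tied at 4.32 in each. Pollinia were also the highest organ for 38.3% of all detected contigs, columns for 19.0%, petals for 13.1%, pedicels for 10.74%, lips for 9.74% and sepals for 9.12%. Pollinia and columns were thus common highest organs among all detected contigs and not only among the members. Petals and lips took a greater part of the members than of detected contigs.

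Against the mean of the 5 other organs, 41 members were called higher in the lip, beside 2.51% of all contigs. In the column 32 were called higher, beside 2.88%, in the petal 28, beside 2.70%, and in the sepal 25, beside 2.74%. A contig could be called in more than 1 organ. In the pedicel 12 were called higher (6 under normexp background correction), beside 4.61% of all contigs, and 32 lower, beside 2.38%. In pollinia 54 were called higher, beside 19.2%, and 60 lower, beside 18.1%. The median difference of the members was 0.29 in petals, 0.08 in lips and -0.53 in pedicels, and those of the sepal, column and pollinia lay between -0.21 and -0.03. The pedicel was the organ with the lowest median level of the members, 8.73, and the petal the one with the highest, 10.27.

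**Figure D3:**
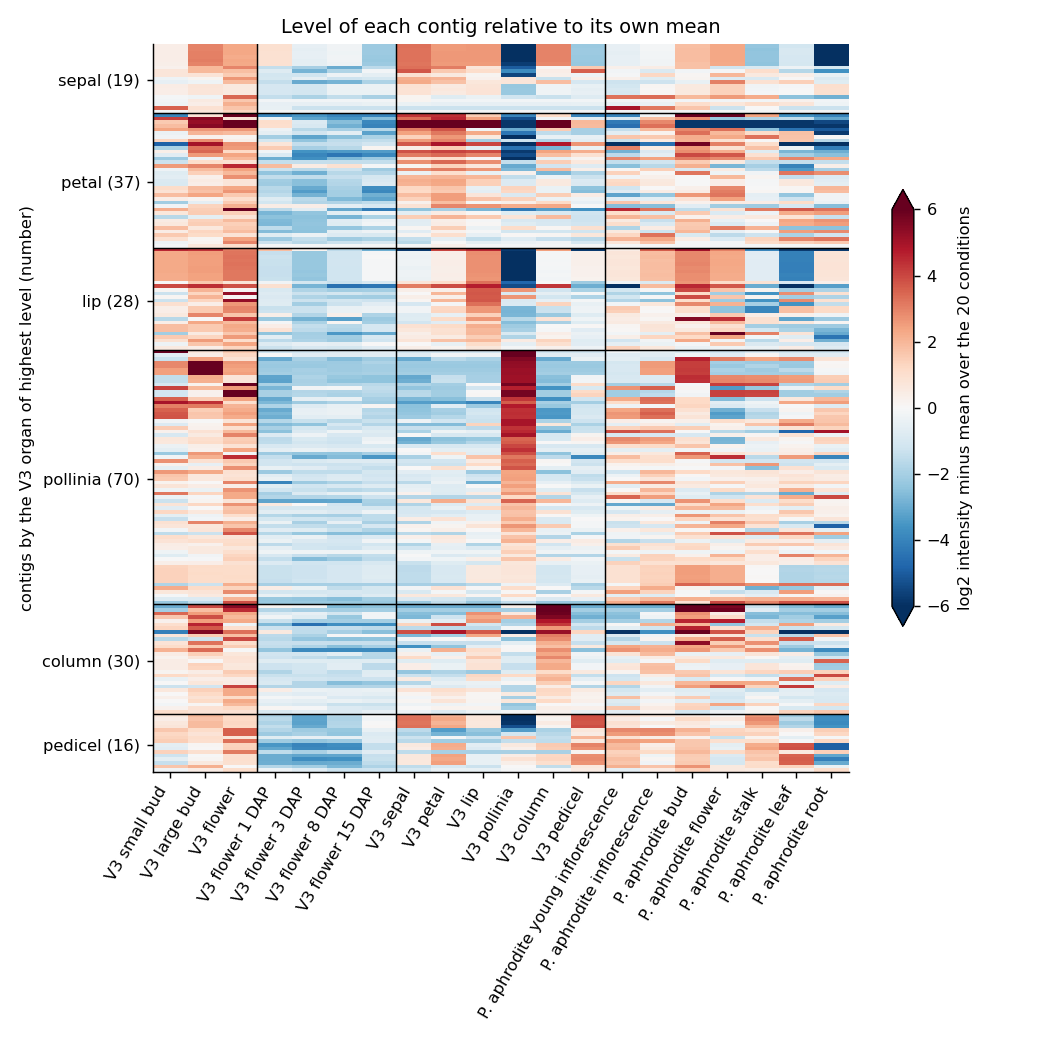
Log2 intensity of each of the 200 contigs minus its own mean over the 20 amplified conditions, with contigs in rows grouped by the V3 organ of highest level and conditions in columns. The members highest in pollinia (70) form the largest group, and the rows drawn with the sepal group include 2 contigs that no organ detected.

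The class of 19 members highest in sepals had median levels that were high in the perianth and column and at the floor in pollinia. It includes the tied PATC136002 and PATC010376, and PATC069178, which was at or near the floor in every organ. The median of the 19 was 14.06 in sepals, 13.39 in petals, 13.40 in lips, 13.42 in columns, 8.61 in pedicels and 4.32 in pollinia. It went from 13.06 in the open flower to 11.71, 10.23, 10.56 and 8.54 at 1, 3, 8 and 15 DAP. A group of 6 near-identical contigs belonged here, among them PATC145608, PATC132683 and PATC137253. PATC137253 read 14.16 and 14.14 in sepals, 13.60 and 13.26 in petals, 13.48 on both lip arrays, 13.84 and 13.82 in columns and 8.68 and 8.56 in pedicels, and was not detected in pollinia. In sepals it was higher than the mean of the other organs by 3.41 ± 0.11 (SE, adjusted p = 2.0e-07), but the sepal arrays stood only 1.25-fold above the next organ. In flowers it read 13.19 on both arrays and 8.70 and 8.63 at 15 DAP, without overlap between the flower and any day.

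The 37 members highest in petals had a median of 11.92 in petals, 10.85 in sepals, 10.63 in lips and 7.74 in pollinia. After pollination this median was lower at each later day, with 8.89, 7.94, 7.60 and 7.05, from 12.05 in the open flower. The top member PATC154404 and PATC068557 belong to this class. Compared with the 5 other organs, PATC154404 was higher in petals by 4.60 ± 0.05 (adjusted p = 8.1e-09) and in sepals by 4.45 ± 0.05 (adjusted p = 8.8e-09). PATC147335, also of the top 12, was less bound to 1 organ, with 11.19 and 10.99 in petals, 10.62 and 10.78 in sepals, 10.78 and 10.82 in pollinia and 7.06 on both pedicel arrays.

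The 28 members highest in lips were the brightest class, with a median of 15.13 in lips, 13.41 in petals, 11.48 in sepals and 6.74 in pollinia. From 15.51 in the open flower their median went to 11.80 at 1 DAP and lay between 10.12 and 10.31 from 3 DAP on. PATC149493 of the group of 8 read 17.16 and 17.17 in lips and 14.79 and 14.76 in petals. Sepals, columns and pedicels lay between 14.09 and 14.68, and 1 of the 2 pollinia arrays detected it, at 4.32. In lips it exceeded the other organs' mean by 4.74 ± 0.04 (adjusted p = 9.8e-10), and it was 5.25-fold above the next organ. PATC128342 was bright in lips (14.63 and 14.52), petals (14.03 and 14.18) and columns (12.49 and 12.61) and was not detected in sepals, pedicels or pollinia. The other probe of PATC128342 disagreed, with a value of -6.31 in the measure that defined the set.

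The 30 members highest in columns had a median of 10.34 there and 6.77 to 8.93 in the other organs, and of 10.44 in the open flower. After pollination their median was 7.06, 6.47, 5.73 and 6.56. This class held 4 of the 10 members that no array of pollinated flowers detected, and PATC153741, the second member by value, was of this kind. It read 14.57 and 14.61 in columns and was detected on no array of another organ, at least 1233-fold below the column. The open flower read 10.80 and 10.79 and the large bud 8.16 and 8.12, while none of the 8 arrays after pollination detected it. The difference of the column from the other organs was 10.27 ± 0.10 (adjusted p = 2.0e-09). *P. aphrodite* buds read 14.44 and 14.75 and its flowers 12.19 and 12.22, above the V3 large bud and flower.

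PATC154343 was also a column transcript, with 17.21 and 16.85 there and 7.66 and 7.64 in pollinia, and no other organ detected it. Since 4 of the other organs did not detect it, their mean is a bound, and the column exceeded it at least 4217-fold (fitted difference 12.04 ± 0.04, adjusted p = 2.2e-11). It did not go to the floor at once. It read 12.78 and 12.79 in open flowers, 7.42 and 7.52 at 1 DAP, 7.20 and 7.12 at 3 DAP, 4.65 and 4.63 at 8 DAP and 4.89 and 4.77 at 15 DAP. PATC135675 and PATC134808 were highest in columns and second in lips, at 12.78 and 12.82 against 9.60 and 9.63 for PATC135675, and at 11.17 on both column arrays against 9.11 and 8.85 for PATC134808.

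The 70 members highest in pollinia had a median of 12.11 there and 7.10 to 8.45 in the other organs. Their median was 11.21 in the open flower and lay between 6.59 (1 DAP) and 7.35 (3 DAP) after pollination. PATC136440 read 12.48 and 12.51 in pollinia and was detected in no other organ, which was at least 288-fold lower (8.17 ± 0.13, adjusted p = 5.9e-10). It was also bright in small buds (12.25 and 12.30) and dimmer in large buds (6.29 and 6.22) and open flowers (7.28 and 6.97). PATC138469 read 12.87 and 12.93 in pollinia, with no other organ above 7.01 (7.55 ± 0.18, adjusted p = 6.1e-09), and 8.25 and 8.18 in open flowers. PATC126788, of the top 12, was bright in pollinia (12.13 and 12.10) and lips (10.68 and 10.65). The summed level of the 6 pollinia factors above was higher on each later day. Among them only PATC138798 and PATC132082 were themselves higher on each later day. PATC138345, PATC134262 and PATC152106 were lower at 8 DAP than at 3 DAP. PATC140443 went the other way on each day, with 11.10, 10.95, 10.61 and 10.58 at 1, 3, 8 and 15 DAP. The median of this class was not above 7.35 on any of these days.

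The 16 members highest in pedicels had a median of 11.40 in pedicels, 10.34 in petals and 7.03 in pollinia. Of all classes this one had the largest return at 15 DAP. The median was 10.79 in the open flower, 6.03, 5.50 and 5.48 at 1, 3 and 8 DAP, and 7.82 at 15 DAP. PATC149452 read 15.53 and 15.48 in pedicels and 14.90 and 14.94 in sepals, and its pedicel level exceeded the others' mean by 3.83 ± 0.11 (adjusted p = 1.5e-07).

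For many members the whole V3 flower read above every one of the organs it consists of. The V3 flower was above every organ for 84 members, beside 16.0% of all contigs detected in flower, bud or organs, and by over 4-fold for 18, beside 1.14%. Both flower and large bud were above every organ for 38, beside 2.50%. The rule favoured contigs that are bright in flower and bud, so these counts are a description. Flowers and buds were on other slides and in other scan batches than the organs. For PATC153398 the V3 flower read 15.48 and 15.51 and no organ array was above 6.71. PATC153398 and PATC136002 were the 2 members with both flower and large bud over 4-fold above every organ, and PATC136002 and PATC010376 were the 2 that no organ detected. These contigs were chosen after their values were seen. PATC010376 rests on 1 array per condition, with 7.07 against an undetected 4.32 in flowers and 5.85 against an undetected 4.32 in large buds.

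Organs shared scan batches with the flowers at 3, 8 and 15 DAP, but not with V3 flowers at 1 DAP or with V3 flowers and buds before pollination. The highest organ was above the highest day after pollination for 195 members, beside 77.1% of detected contigs, and over 4-fold above it for 143, beside 18.6%. Leaving pollinia out of the organs, these counts were 175 and 101. No share over detected contigs was taken without pollinia, so these 2 counts cannot be read against 77.1% and 18.6%. Within the scan batch that held all 6 organs and flowers at 3 and 8 DAP, the counts were 196 and 151, with 84.5% and 24.8% of detected contigs. Within the batch that held column, pedicel, pollinia and flowers at 3, 8 and 15 DAP they were 184 and 121, with 73.4% and 19.1%. The days after pollination chose the members, so these counts are a description. In the first of these batches the median of the members was 8.76 to 10.34 in the organs, 7.63 at 3 DAP and 7.74 at 8 DAP.

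Many members were also detected in leaves and roots. Of the 20 amplified conditions the highest was the V3 flower for 43 members, pollinia for 35, *P. aphrodite* buds for 22 and *P. aphrodite* flowers for 18. Leaves and roots of *P. aphrodite* were the highest for 10 members each, and a day after pollination could not be the highest by the way members were chosen. The leaf arrays and the root arrays all detected 132 of the 200 members, beside 79.6% of the contigs detected in V3 flower, large bud or organs. On none of them were 18 members detected, beside 6.67% of those contigs. The mean of the V3 organs was called higher than the mean of *P. aphrodite* leaf and root for 45 of 197 members tested, beside 6.05%, and lower for 29 (19 under normexp), beside 6.24%, a comparison in which tissue and genotype cannot be told apart. Bright V3 flowers and buds chose the members, so a tilt towards the organs lies partly in the choice.

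Within *P. aphrodite*, the flower was called higher than the leaf for 68 of 184 members tested, beside 8.47% of all contigs, and lower for 29, beside 9.26%. It was higher than the root for 72 of 189, beside 8.39%, and lower for 27, beside 10.3%. The median difference was 0.55 against the leaf and 1.22 against the root, with 0.06 and 0.07 over all contigs. Flower, leaf and root had 1 replicate each and lay in different scan batches, so tissue and batch cannot be told apart here. The choice of members for bright V3 flowers and buds also favours a tilt towards the flower, so these counts are partly built in. Against the bud of the same genotype the direction turned. The flower was called higher for 12 of 194, beside 5.81%, and lower for 46, beside 8.12%, with a median of -0.50 for the members and 0.07 for all contigs. With only the bud array that shared a scan batch with the flowers, the counts were 12 and 47, and with scan batch as a block they were 13 and 46. PATC154404 was among those higher in the flower, by 12.70 ± 0.10 over the leaf (adjusted p = 2.7e-10) and by 2.17 ± 0.09 over the bud (adjusted p = 2.8e-07).

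The brightest members in leaf and root were PATC209823, its near-identical partner PATC226632, and PATC226439. PATC209823 read 17.42, 17.39 and 17.44 in leaves and 16.71 and 16.81 in roots, against 13.20 and 13.22 in *P. aphrodite* flowers, a difference of flower from leaf of -4.21 ± 0.12 (adjusted p = 3.6e-08). In V3 it read 18.24 and 18.19 in lips and 18.49 on both flower arrays, and between 14.36 and 15.33 after pollination. It thus remained bright on every day. PATC226439 read 15.81, 15.80 and 15.76 in leaves, 16.09 and 16.07 in roots, 15.24 and 15.30 in V3 flowers and 12.04 and 12.02 in *P. aphrodite* flowers, while the organs lay between 11.22 and 12.56 and the days after pollination between 10.66 and 11.44.

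**Figure D4:**
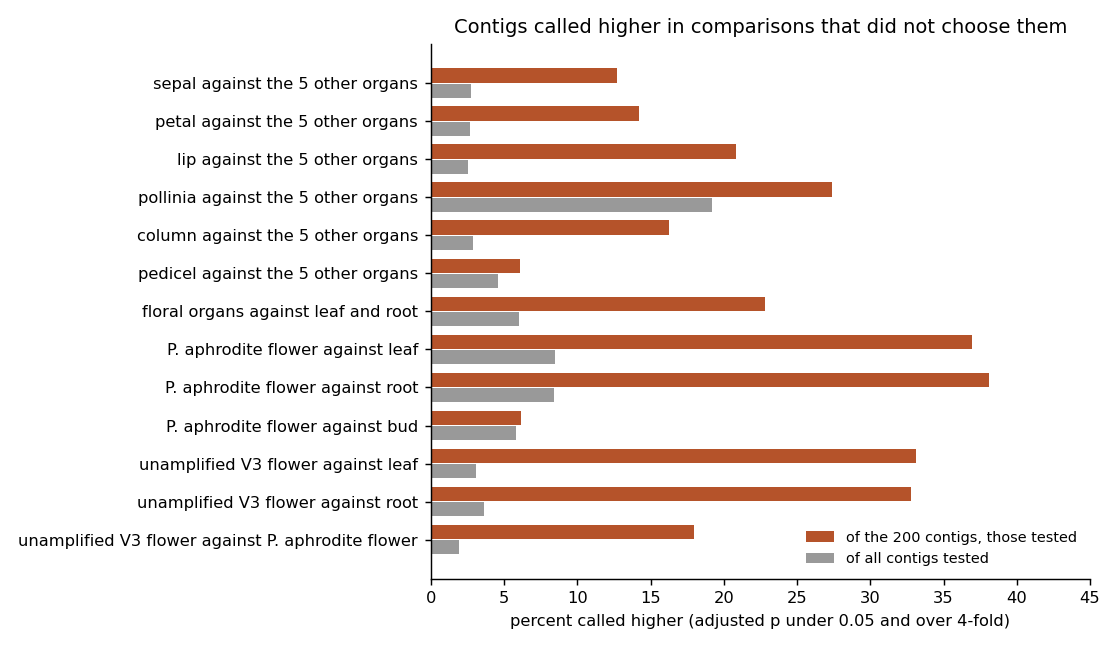
Percent of tested members and of all tested contigs called higher at an adjusted p under 0.05 and over 4-fold, for each tested comparison. For the lip against the other organs these are 20.8% and 2.51%, and for the *P. aphrodite* flower against the bud 6.19% and 5.81%.

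The arrays labelled without amplification gave a second reading of open flowers, leaves and roots. Whether their V3 flower RNA came from the flowers of the amplified arrays is not given in the sources used here. Both unamplified V3 flower arrays detected 183 members and neither detected 12. The members were chosen on V3 flowers, so a tilt towards the flower over leaf and root lies partly in the choice. The V3 flower was called higher than the V3 leaf for 61 of 184 members tested (32 with a raw signal of 500 as filter), beside 3.08% of all contigs, and lower for 4 (1 to 2 under 4 of the alternatives), beside 5.05%. Against the V3 root it was higher for 61 of 186 (29 with that filter), beside 3.61%, and lower for 2, beside 6.71%. The median difference was 0.89 against the leaf and 1.39 against the root, with 0.12 and 0.16 over all contigs. These calls rest on both V3 flower arrays. With either left out limma called 0 contigs of the array in each unamplified comparison, since the spread then came from the V3 roots alone, and without V3 root replicate 1 it called 0 against the root. At an unadjusted p under 0.05 and over 4-fold, 59 members were higher than the leaf without either flower array, and 61 to 64 were higher than the root in these 3 settings. Flower and leaf of V3 shared a scan batch, while the roots were scanned in another.

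PATC154404 read 12.30 and 12.33 on unamplified V3 flower arrays and was not detected in V3 leaves, a bound of at least 254-fold (7.99 ± 0.31, adjusted p = 0.00021). The 4 members lower in the flower than in the leaf were PATC136002, PATC025725, PATC224358 and PATC069178, and the 2 lower than in the root were PATC117345 and PATC064523. These were chosen after their values were seen. PATC136002 read 10.72 and 10.78 in V3 leaves, 12.08, 12.14 and 12.08 in *P. aphrodite* leaves and 5.62 and 5.19 in V3 flowers (-5.34 ± 0.34, adjusted p = 0.00045). The amplified *P. aphrodite* leaf arrays did not detect it, so the readings of PATC136002 with and without amplification contradict each other. PATC025725 and PATC224358 are near-identical, and with amplification too their *P. aphrodite* leaf level was higher than any flower level, at 12.97, 12.97 and 12.95 for PATC025725 against 10.53 and 10.56 in V3 flowers.

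On the unamplified arrays the flowers of V3 and *P. aphrodite* could be set against each other in 1 scan batch. By the methods of the study the probes were designed on transcripts of *P. aphrodite*. Probe match and transcript level can therefore not be told apart between the genotypes. The V3 flower was called higher for 33 of 184 members tested, beside 1.96% of all contigs, and lower for 2, beside 2.83%. The median difference was 0.50, and 0.07 over all contigs. The members were chosen on V3 flowers, so a tilt towards V3 lies partly in the choice. The count of 33 was 15 with no filter on dim probes, 19 under normexp and 20 with a raw signal of 500 as filter. With either V3 flower array left out limma called 0, and 36 and 35 members were higher at an unadjusted p under 0.05 and over 4-fold. On the amplified arrays 13 members were not detected in *P. aphrodite* flowers. Those with the V3 flower detected on every array and the *P. aphrodite* flower on none, with and without amplification, were 4, beside 0.158% of all contigs, and they were PATC034731, PATC068557, PATC169769 and PATC177173. They make up 2 near-identical profiles.

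PATC034731 read 13.60 and 13.09 in unamplified V3 flowers and was detected on neither array of *P. aphrodite* flowers, a difference of at least 518-fold (9.02 ± 0.35, adjusted p = 0.0060). On the amplified arrays the V3 flower was at least 5892-fold above the *P. aphrodite* flower, and no array of *P. aphrodite* bud, leaf, root or stalk detected it. The arrays labelled *P. aphrodite* inflorescence read 13.58 and 13.38, and their genotype label was already in doubt. Those labelled young inflorescence read 5.47 and 5.80. In V3 the contig was also not detected in pollinia or in unamplified leaves, and 1 of the 2 root arrays detected it, at 4.54.

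PATC209823 was also higher in V3 flowers, with 17.10 and 17.33 against 11.36 and 11.21 (5.93 ± 0.29, adjusted p = 0.0060), and PATC153398 with 11.89 and 12.50 against 6.67 and 6.47 (5.62 ± 0.40, adjusted p = 0.0075). The 2 members called lower in V3 were PATC154408 and PATC136002. PATC154408 read 6.22 and 6.25 in V3 and 11.24 and 11.41 in *P. aphrodite* (-5.09 ± 0.28, adjusted p = 0.0060), and on amplified arrays 11.30 and 11.23 against 16.33 and 16.28. In PATC154404 the genotypes lay close, at 12.30 and 12.33 against 12.60 and 12.71.

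**Figure D5:**
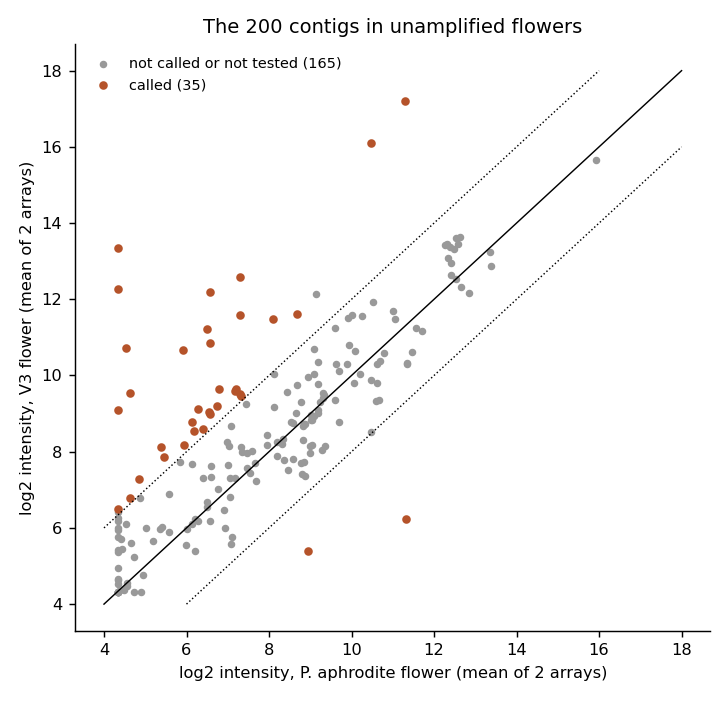
Log2 intensity of the 200 contigs in unamplified open flowers of V3 against those of *P. aphrodite*, as means of 2 arrays, with called contigs in colour. The solid line marks equal levels and the dotted lines 4-fold differences. Of the called contigs 33 lie above the upper and 2 below the lower dotted line.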

How the data were processed

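RNA of V3 and *P. aphrodite* was hybridised to a custom 1-colour Agilent array with 67046 probes of 2 spots each, for 43662 contigs. The authors deposited the intensity of every spot, which the scanner software had corrected for background and for trends within the array. Their table of log2 values was found to hold log2 intensities, raised to 20 where lower, from which each array's 75th percentile, or nearly that, had been subtracted. Quantile normalization, which the methods name, is not in that table. Amplified RNA was labelled as cRNA and unamplified RNA as cDNA, and the 2 kinds were not set against each other. Genome, probe sequences and annotation were not used here.

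The 200 members come from the deposited log2 values. All other values come from the scanner intensities: spots marked as outliers were left out, intensities had a floor of 20, log2 values were quantile normalized among the 41 amplified and, by themselves, among the 13 unamplified arrays, and the same probe was used. A contig was tested when, in at least 1 condition compared, each array had at least 0.5 of the probe's spots well above background. Replicate arrays were counted as 1 where the median difference between arrays was no larger than that between replicate spots. limma 3.58.1 in R 4.3.3 was fitted with 1 coefficient per condition to all amplified or all unamplified replicates, with 6 and 2 residual degrees of freedom, and was tested on simulated data. The number of arrays limits the precision, and no spot was saturated.

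The members, the lists and the tests were chosen with earlier results of these data known, and the change over pollination, which chose the members, was not tested. Named are the 12 members with the largest value, up to 3 per organ class by the difference of that organ from the others, the 3 brightest in leaf and root, those at the edge of the set, and contigs stated as chosen after their values were seen. The alternatives tried were the 75th percentile in place of quantile normalization, normexp background correction with an offset of 50, a floor of 5, the mean of a contig's probes, a filter at a raw signal of 500 or none, other ways of counting replicates, a fit of only the conditions compared, scan batch or slide as a block, and each array left out.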

Additional observations from a re-analysis of the deposited data

How the results depend on the processing

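The set itself depended most on which unpollinated sample it was measured from. Ranked by the V3 flower alone, 43 of the 200 contigs were kept, and ranked by the large bud alone, 32. With quantile normalized values 155 were kept, and with the mean of all probes 182. With each array of the selection left out in turn, 191 to 200 were kept.

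The counts of called members on amplified arrays stayed within 1.5 times under every alternative except normexp, which gave 6 in place of 12 for the pedicel and 19 in place of 29 for members lower in organs than in leaf and root. With each array left out in turn, the count of members that differ across organs lay between 172 and 175. The counts of members called higher lay between 25 and 26 in sepals, 26 and 30 in petals, 41 and 42 in lips, 53 and 54 in pollinia, 31 and 33 in columns and 11 and 12 in pedicels. With scan batch as a block and every array as a replicate, they were 25, 27, 40, 54, 32 and 13 in the same order.

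The unamplified counts moved more. Without V3 flower replicate 1 or 2, the 6 counts fell to 0 with 1 residual degree of freedom, and without V3 root replicate 1 both counts against the root did. Over arrays left out, the counts ran from 0 to 60 for members higher than the leaf, 0 to 4 for those lower than the leaf, 0 to 60 and 0 to 2 for the root, and 0 to 31 and 0 to 2 for *P. aphrodite*. With every array counted as a replicate, they were 61 and 4, 61 and 2, and 35 and 2. A filter at a raw signal of 500 left 32 members higher and 1 lower than the leaf, 29 higher than the root, and 20 higher and 1 lower than *P. aphrodite*. Under normexp 2 were lower than the leaf, 1 lower than the root and 19 higher than *P. aphrodite*. With no filter 2 were lower than the leaf and 15 higher than *P. aphrodite*, and with the mean of probes 2 were lower than the leaf and 1 lower than *P. aphrodite*. Fewer contigs are tested under the signal filter. The cause of the other shifts was not tested.

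Of the single contigs named, only the sepal difference of PATC069178 reversed, from 0.32 to -0.31 with the 75th percentile. Its levels lie near the floor. Differences of dim contigs such as this are limited by signal over background. No paired analysis was possible because the labels give no replicate numbers. With scan batch as a block, an alternative chosen after seeing the data, 13 and 46 members were higher and lower in the *P. aphrodite* flower than in the bud. In the comparisons with leaf and root on amplified arrays and with unamplified roots, tissue and scan batch could not be separated.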
